A study of Mus musculus with 14 samples.

Results

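Cerebellins, neurexins and neuroligins are the proteins of one trans-synaptic adhesion system, and their genes were followed through 14 mouse glioblastomas. The set held 9 named genes, namely Cbln1, Cbln2, Cbln3, Cbln4, Nrxn2, Nrxn3, Nlgn1, Nlgn2 and Nlgn3, among 18484 named genes with a probe. The genes were chosen by family name, with the difference between the tumour types already known from these arrays, so each type difference of a member is a description and carries no test. A probe was found for 8 of the 9 genes, and Nlgn3 was not analysed here. These 8 genes had 17 probes, and 7 of the genes passed the detection filter, a detection p under 0.05 on at least 3 arrays, as did 11786 genes in all.

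Tumours arose in mice of mixed background that were given tamoxifen by mouth as adults, 6 to 8 weeks old. Each mouse received 1 dose, scaled as 10 mg for every 20 g that it weighed. Tamoxifen switched on a Cre recombinase from the Nestin promoter (Nestin-CreERT2, the 7 Type 1 tumours) or from the NG2 promoter (NG2-CreERTM, the 7 Type 2 tumours). Nestin marks neural stem and progenitor cells, and NG2 marks oligodendrocyte progenitors and also pericytes, so neither driver is limited to a single cell type. Mice of both types carried, among the Cre targets, 2 floxed copies of Trp53, 1 floxed copy of Nf1 and the Rosa-lsl-tdTom reporter, and there was no group without tumours. Total RNA of each primary tumour went onto an Illumina bead array, with 3 Type 1 and 4 Type 2 tumours in batch 1 and 4 Type 1 and 3 Type 2 tumours in batch 2.

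Neurexins are presynaptic membrane proteins that reach across the synaptic cleft and bind several kinds of postsynaptic partner. Neuroligins are the best known of these partners, and they anchor scaffolds on the postsynaptic side. Cerebellins are secreted proteins of the C1q family that bridge neurexins and postsynaptic receptors, as Cbln1 does at synapses of the mouse cerebellum. In mice carrying human gliomas, neuroligin shed by normal brain cells is known to promote tumour growth.

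Between 19299 and 20868 probes were detected per array, and a signal reached detection at about 5.32 to 5.54 on the normalized log2 scale used throughout. Precision is limited by the number of arrays. Each of the 5 chips held tumours of a single type, so chip and type cannot be told apart. No arrays held identical values. All 12 astrocyte markers and all 9 oligodendrocyte progenitor markers examined passed the detection filter in this tissue. In RNA from whole tumours, fewer cells of a type and less RNA per cell cannot be told apart.

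Cbln4 encodes a secreted cerebellin that binds neurexins and the netrin receptors DCC and neogenin. Its probe (NM_175631, gene on chromosome 2) was detected in all 7 Type 1 tumours and in 0 of the 7 Type 2 tumours. In Type 1 the level was 6.57 at the lowest, 7.45 at the median and 9.59 at the highest, and the mean was 7.67 ± 0.98 (SD, n = 7). Among Type 2 tumours the readings were 4.65, 4.80 and 4.99, averaging 4.82 ± 0.11 (SD, n = 7), and none of them reached detection. The types therefore did not overlap: the dimmest Type 1 tumour lay above the brightest Type 2 tumour. Among all 11786 genes, 0.628% had every Type 1 tumour above every Type 2 tumour.

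The Type 1 mean of Cbln4 was at least 4.86-fold higher, taking for each Type 2 array the higher of its lowest detected signal and the probe's own reading. The fitted difference, Type 1 minus Type 2 with batch as a term, was 2.90 ± 0.35 (SE) on the log2 scale. It was 3.37 in batch 1 and 2.43 in batch 2, and 2.69 when computed from the authors' processed values. The brightest Type 1 tumour, replicate 1 at 9.59, was also the tumour highest in choroid plexus genes, and without it and the Type 2 tumour highest in those genes the difference was 2.50. The level without background correction differed by 1.28 between the types. All Type 2 readings lay below the detection floor, so the size of the fitted difference rests on background readings.

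**Figure D1:**
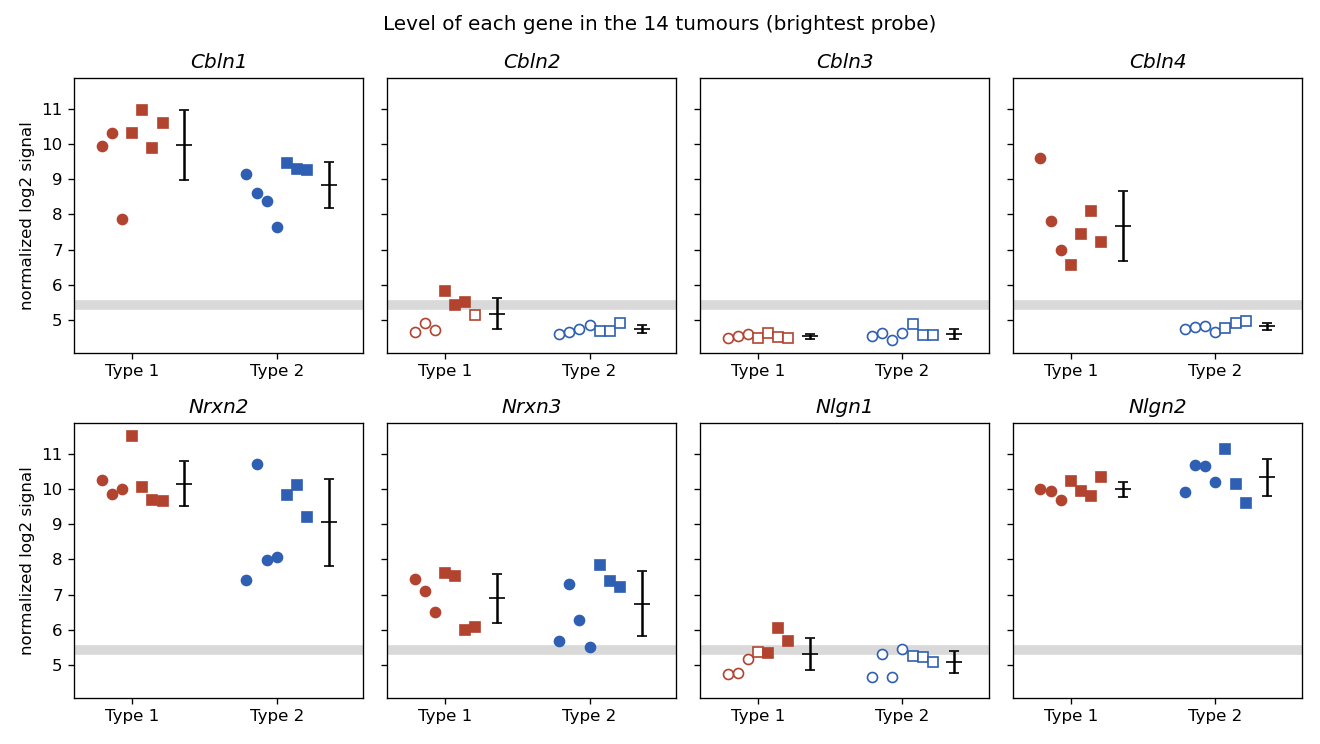
Normalized log2 signal (y axis) of the brightest probe of each of 8 genes in the 14 tumours, by tumour type (x axis); circles are batch 1, squares batch 2, filled points are detected and open points are not, bars are the mean and SD of 7 tumours, and the grey band spans the detection floor of the arrays, 5.32 to 5.54. Cbln4 is the gene whose 7 Type 1 tumours, from 6.57 to 9.59, all lie above the 7 Type 2 tumours, while Cbln3 is open in every tumour.

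The stretches before the start sites of Cbln4, Cbln3 and Nlgn2 are printed because these genes stood for the outcomes seen here: detected in a single type, detected nowhere, and detected in every tumour. Each is the 250 bases upstream of the RefSeq start on GRCm38.p6, 5′ to 3′ on the minus strand, on which all 3 genes lie. Capitals mark matches on either strand to an E-box (CANNTG), the usual site of basic helix-loop-helix factors, to a GC box (GGGCGG), or to the CCAAT box.
Cbln4, chr2:172043467-172043716: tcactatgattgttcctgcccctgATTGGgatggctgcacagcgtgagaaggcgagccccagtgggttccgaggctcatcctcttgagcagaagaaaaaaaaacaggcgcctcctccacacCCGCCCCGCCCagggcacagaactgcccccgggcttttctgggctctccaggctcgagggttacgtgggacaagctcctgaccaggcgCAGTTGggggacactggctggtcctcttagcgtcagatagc
Cbln3, chr14:55884257-55884506: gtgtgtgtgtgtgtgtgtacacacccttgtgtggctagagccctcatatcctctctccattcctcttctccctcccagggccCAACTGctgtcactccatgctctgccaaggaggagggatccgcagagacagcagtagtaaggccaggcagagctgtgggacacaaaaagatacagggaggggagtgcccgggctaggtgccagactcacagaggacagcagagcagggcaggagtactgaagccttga
Nlgn2, chr11:69837785-69838034: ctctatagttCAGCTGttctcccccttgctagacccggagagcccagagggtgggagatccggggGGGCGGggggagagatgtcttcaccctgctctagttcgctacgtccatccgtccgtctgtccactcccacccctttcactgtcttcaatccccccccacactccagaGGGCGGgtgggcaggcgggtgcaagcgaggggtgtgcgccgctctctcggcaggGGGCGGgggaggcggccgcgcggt

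The Cbln4 window held 1 E-box and, read on the opposite strand, 2 GC boxes that overlap by a base and 1 CCAAT box. Its GC content was 60.8%, against a median of 52.4% over 32851 RefSeq promoter windows of the same length, and it held 11 CpG dinucleotides against a median of 6. The Cbln3 window held 1 E-box, no GC box and 2 CpG. The Nlgn2 window held 3 GC boxes, 1 E-box and 18 CpG, with a GC content of 67.6%. Over all windows, 66.2% held an E-box, 32.7% a GC box and 33.8% a CCAAT box, so each of these letters is common. The TATA box (TATAAA), found in 12.4% of windows, was in none of these 3. A match is a description of the letters and not a binding site.

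The 3 measured genes on each side of Cbln4 on chromosome 2 were examined next, in the order of the reference gene table. Dok5, the nearest on one side, differed by 0.88 ± 0.24 (SE) with a limma adjusted p of 0.0523, and Pfdn4 beyond it by 0.64 ± 0.19 (SE) with a limma adjusted p of 0.0726. Bcas1, Fam210b, Aurka and Cstf1 had differences between -0.07 and 0.24. None of the 6 neighbours passed the adjusted threshold of 0.05.

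Cbln1, the cerebellin that holds parallel fibre synapses on Purkinje cells, was detected on all 14 arrays (NM_019626, chromosome 8). The level in Type 1 was 7.87 at the lowest, 10.29 at the median and 10.95 at the highest, averaging 9.97 ± 1.00 (SD, n = 7). Among Type 2 tumours it was 7.64, 9.15 and 9.45, averaging 8.83 ± 0.65 (SD, n = 7). The types overlapped through a single Type 1 tumour, replicate 3 at 7.87, and the other 6 Type 1 tumours all lay above the highest Type 2 tumour. Replicate 3 also had the highest mean of the astrocyte markers, at 11.88, and of the cerebellar markers, at 7.62, and their part in its Cbln1 level was not tested. The difference was 1.01 ± 0.34 (SE), or 2.01-fold, with a 95% interval of 0.28 to 1.73. Both batches gave a value of like size, 0.92 in batch 1 and 1.10 in batch 2. Without replicate 3 it was 1.35.

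Cbln2, a cerebellin of forebrain and other neurons, sat at the edge of detection. Its brighter probe (NM_172633, chromosome 18) was detected in 3 Type 1 tumours and in 0 Type 2 tumours. All 3 of those tumours were in batch 2, at 5.83, 5.53 and 5.43, and the remaining Type 1 tumours lay between 4.66 and 5.14. Type 2 readings lay between 4.60 and 4.93. The difference was 0.05 in batch 1 and 0.72 in batch 2, and the type by batch interaction of 0.67 ± 0.27 (SE) had a limma adjusted p of 0.242. The probe passed the detection filter through batch 2 tumours alone, so this interaction is a description. No fold is given, because the Type 1 mean of 5.18 did not exceed the detection floor. The dimmer probe was detected on 1 array.

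Cbln3, which forms complexes with Cbln1 in cerebellar granule cells of the mouse, was detected on 0 of 14 arrays by either of its 2 probes (NM_019820, chromosome 14). Both probes read between 4.43 and 4.90 in every tumour. Cerebellar neuron markers were examined beside Cbln1 and Cbln3, since both genes are best known from the cerebellum. Of 10 granule and Purkinje cell markers, 6 were detected on no array, namely Gabra6, Neurod1, Pcp2, Calb1, Car8 and Pcp4. The 4 that passed the filter, Zic1, Zic2, Zic4 and Pvalb, had a median difference of 0.41, and 0 were called by limma (0 at an unadjusted p under 0.05). Their mean level ranged from 5.65 to 7.62 in Type 1 and from 5.33 to 6.70 in Type 2.

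Nrxn2, a presynaptic neurexin, had 5 probes (all NM_020253, chromosome 19). The brightest was detected on all 14 arrays, at 9.64, 9.99 and 11.50 (lowest, median, highest) in Type 1 and at 7.40, 9.20 and 10.71 in Type 2. Type 1 averaged 10.14 ± 0.64 (SD, n = 7) and Type 2 averaged 9.05 ± 1.25 (SD, n = 7). Type 2 tumours were the more spread out: replicates 1, 3 and 4, all of batch 1, lay between 7.40 and 8.08, while replicate 2 of the same batch stood at 10.71. The difference was 1.00 ± 0.46 (SE), with 1.48 in batch 1 and 0.51 in batch 2. Numbered by brightness, probe 2 gave 0.68 and probe 3 gave 0.78, probe 4 gave -0.14, and probe 5 was detected on no array.

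Nrxn3, the other neurexin of the set, had a smaller difference in mean than its spread. Its brightest probe (NM_172544, chromosome 12) was detected on all 14 arrays, at 6.00, 7.11 and 7.60 in Type 1 and 5.52, 7.21 and 7.84 in Type 2. The means were 6.89 ± 0.69 (SD, n = 7) and 6.75 ± 0.91 (SD, n = 7), and the difference was 0.07 with a 95% interval of -0.75 to 0.89. The batches ran in opposite directions, with Type 1 higher by 0.82 in batch 1 and a difference of -0.68 in batch 2. That interaction, -1.50 ± 0.68 (SE), had an unadjusted limma p of 0.0449 and an adjusted p of 0.293, so it did not pass. Probes 2 and 3, of the same accession, gave differences of -0.08 and -0.25, and they too were positive in batch 1 and negative in batch 2.

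Nrxn3 probe 4, of another transcript record (AK078216), behaved apart from the other 3. It was detected in 1 Type 1 tumour and 5 Type 2 tumours and lay near the floor, between 4.81 and 5.62. Its difference of -0.13 had the same sign in both batches. Deviations of each tumour from the mean of its type and batch were correlated between probes over the 14 arrays, as a description. Nrxn3 probes 2 and 3 correlated at r = 0.94, and each correlated with probe 1 at 0.57 and 0.67. Probe 4 reached at most 0.20 with any of them. Within Nrxn2, probes 1 and 3 correlated at 0.97, and probe 2 with them at 0.86 and 0.80. Nrxn2 probe 4 correlated with probes 1, 2 and 3 at 0.67, 0.51 and 0.75. Probes of a gene share the RNA and the array of each tumour.

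**Figure D2:**
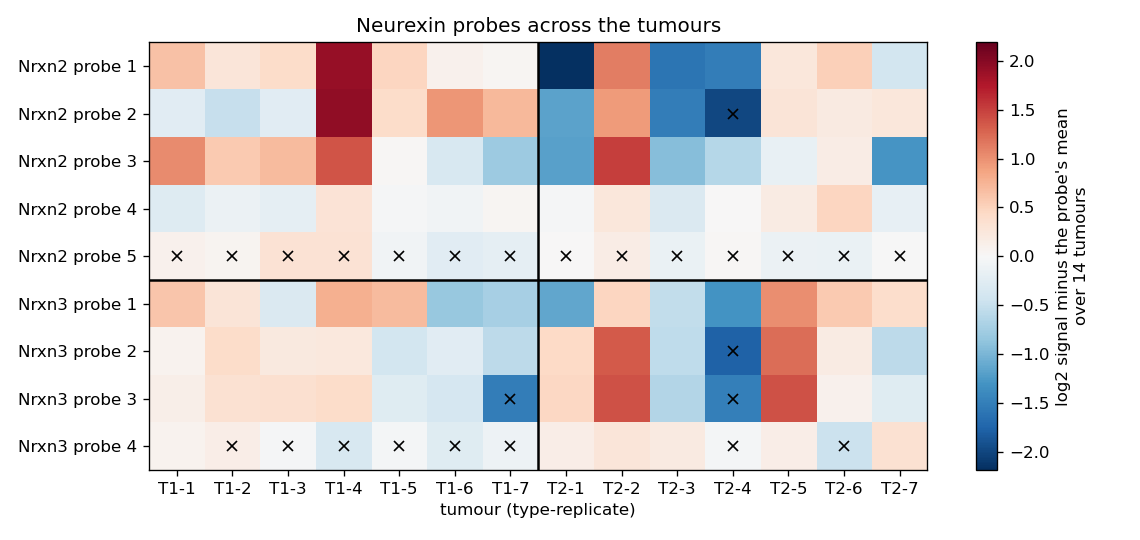
Log2 signal of each neurexin probe minus that probe's mean over the 14 tumours (colour), with probes in rows and tumours in columns (T1 is Type 1, T2 is Type 2, numbered by replicate); a cross marks a probe not detected on that array. Type 1 replicate 4 is red on the 3 brightest Nrxn2 probes, Type 2 replicate 2 is red on the 3 brightest probes of both genes, and Type 2 replicate 4 is blue on most of them.

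Nlgn1, the neuroligin of excitatory synapses, was near background (NM_138666, chromosome 3). It was detected in 3 Type 1 tumours, again all of batch 2, and in 0 Type 2 tumours. Levels ran from 4.76 to 6.05 in Type 1 and from 4.67 to 5.44 in Type 2, and they overlapped. The difference was 0.16, with -0.11 in batch 1 and 0.42 in batch 2, and no fold is given at this level.

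Nlgn2, the neuroligin of inhibitory synapses, was the member whose Type 1 mean was the lower. Its probe (NM_198862, chromosome 11) was detected on all 14 arrays, with 9.68, 9.93 and 10.33 in Type 1 and 9.60, 10.19 and 11.12 in Type 2. The means were 9.98 ± 0.23 (SD, n = 7) and 10.33 ± 0.52 (SD, n = 7). The difference of -0.36 had a 95% interval of -0.83 to 0.12, with -0.49 in batch 1 and -0.22 in batch 2. The groups overlapped, and 3 Type 2 tumours lay above every Type 1 tumour.

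Of the 7 members that passed the filter, 1 was called between the types at an adjusted p under 0.05, beside 4.64% of all genes. That member, Cbln4, was higher in Type 1, as were 2.32% of all genes, and another 2.32% were higher in Type 2. Since the type difference was known when the genes were chosen, nothing is read from this count. The median difference of the 7 was 0.38, the value of Cbln2, whose means lay below the detection floor in both types. Cbln2, Cbln4 and Nlgn1 passed the filter through Type 1 tumours alone, which by itself favours a positive median. This median is therefore not set against all genes. Among the 7, Nlgn2 had the lower mean in Type 1, and the differences of Nrxn3 and Nlgn1 changed sign between the batches. The shares of all genes with such signs were not computed, so no count of signs is read.

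The batch term was not used to choose the genes, but Cbln2 and Nlgn1 passed the detection filter through batch 2 tumours alone. Their batch and interaction values are therefore a description. By limma 0 of the 7 members were called between batches, beside 10.7% of all genes. At an unadjusted p under 0.05 there were 3 members, Cbln1, Cbln2 and Nlgn1, beside 26.3% of all genes. Nothing is read from that count, since it holds Cbln2 and Nlgn1. Cbln1 was the nearest, 0.98 ± 0.34 (SE) higher in batch 2 with a limma adjusted p of 0.0799. The interaction of type and batch called 0 members and 0% of all genes. At an unadjusted p under 0.05 it held 2 members, Cbln2 and Nrxn3, and 1931 genes in all, or 16.4%.

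**Figure D3:**
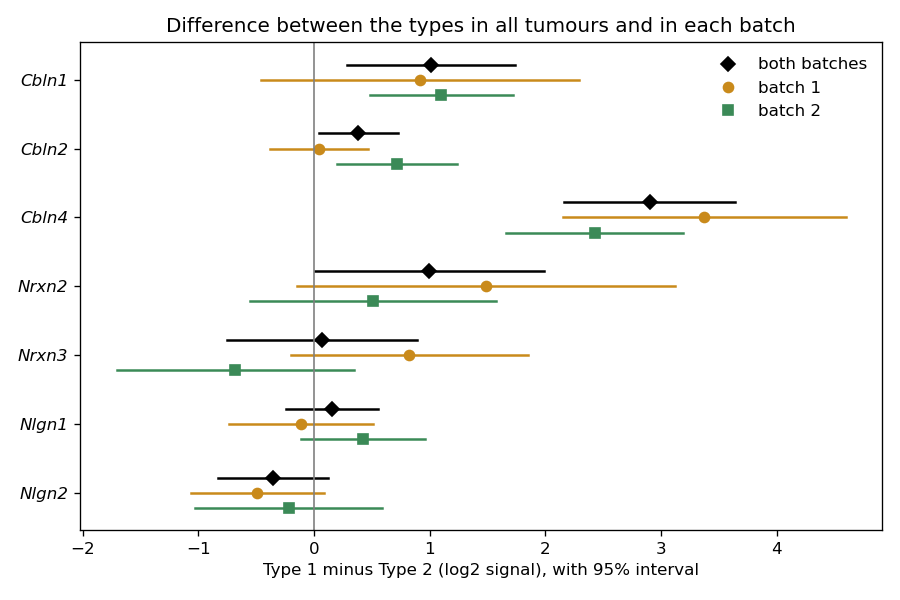
Difference between the types in log2 signal (x axis, Type 1 minus Type 2) with its 95% interval for the 7 genes that passed the detection filter (y axis), fitted over both batches (black) and in batch 1 (orange) and batch 2 (green) alone. Cbln4 stands at 2.90 with 3.37 and 2.43 in the batches, and Nrxn3 lies on opposite sides of 0 in the batches.

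The brightest probes of the neurexins varied together from tumour to tumour. Among Cbln1, Nrxn2, Nrxn3 and Nlgn2, the members detected on at least 10 arrays, deviations from the means of type and batch were correlated over the 14 arrays. The value was r = 0.77 between Nrxn2 and Nrxn3, the highest of the 6 pairs, and the lowest was -0.01 between Cbln1 and Nrxn2. Nrxn2 probes 2, 3 and 4 correlated with Nrxn3 probe 1 at 0.605, 0.775 and 0.366, so the value depends on the probe. Type 2 replicate 2 (10.71 and 7.29) and Type 1 replicate 4 (11.50 and 7.60) were highest in their type and batch for both genes. The weight of these tumours in the value of 0.77 was not tested. Cbln2, Cbln4 and Nlgn1 were left out because they were detected on 7 arrays or fewer. These values describe the 14 arrays, on which all genes share the RNA of the same tumours.

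Mature neuron markers were set beside these patterns, since all 3 families work at synapses. Of 15 markers, 12 passed the filter, and 2 were called by limma, Rbfox3 and Kcnc1, beside 4.64% of all genes. All 12 had the higher mean in Type 1 over both batches. In batch 2 alone Nefm (-0.76), Slc17a7 (-0.49) and Camk2a (-0.14) were lower in Type 1. The share of all genes with such signs was not computed, so the count of signs is not read. The median difference of the 12 markers was 1.22, with 1.90 in batch 1 and 0.53 in batch 2, and their mean level ranged from 8.22 to 10.17 in Type 1 and from 6.67 to 9.81 in Type 2. The defining markers Snap25 and Nefl were detected on no array. With the mean of 11 of these markers (Rbfox3 left out), deviations correlated at r = 0.61 for Nrxn3, 0.40 for Nrxn2, 0.22 for Cbln1 and -0.07 for Nlgn2.

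With that mean as a covariate, the difference of Cbln4 was 2.64 ± 0.41 (SE), that of Nrxn2 was 0.46 and that of Nrxn3 was -0.59. Markers of other cells also differed between the types, and 2.32% of all genes called in each direction is the background of the counts below. The median difference was 1.38 over 12 astrocyte markers (4 called higher in Type 1) and 1.19 over 9 neuroblast markers (4 called higher in Type 1). It was -0.69 over 9 oligodendrocyte progenitor markers (1 called higher in Type 2), -0.46 over 7 myelin markers (3 called) and -0.73 over 8 endothelial markers (2 called). Over 8 fibroblast and mural markers it was -0.91 (3 called) and over 5 Schwann and pigment cell markers -3.84 (4 called), again with the calls higher in Type 2. The progenitor marker called was Sox10, which was on both lists and was also counted among the called Schwann and pigment cell markers. Microglia and choroid plexus markers had 0 called by limma (0 at an unadjusted p under 0.05), with medians of -0.05 over 7 and 0.36 over 5. The part of these lists in the member differences was not tested.

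**Figure D4:**
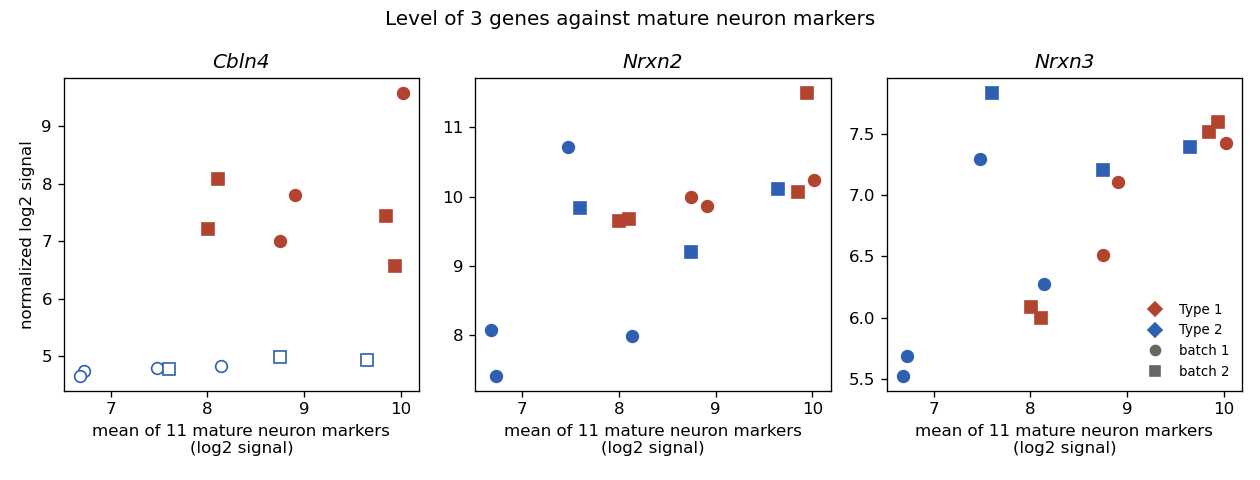
Normalized log2 signal of Cbln4, Nrxn2 and Nrxn3 (y axis) against the mean log2 signal of 11 mature neuron markers (x axis) in the 14 tumours; red is Type 1, blue is Type 2, circles are batch 1, squares are batch 2, and open points are not detected. Cbln4 is detected in the 7 Type 1 tumours, and its Type 2 points are background readings; the part of neurons in these levels was not tested.

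The genes most like each member in pattern were taken as the 3 named genes whose deviations from the means of type and batch correlated most with its own, for members detected on at least 10 of the 14 arrays. For Cbln1 these were Mkrn1 at r = 0.948, Atpif1 at 0.926 and Marcksl1 at 0.925. For Nrxn2 they were Nudt22 at 0.97, Gpr162 at 0.96 and Tagln3 at 0.95. Nrxn3 was followed by Tnnc1 at 0.92, Camk2n2 at 0.92 and Slc24a3 at 0.89, and Nlgn2 by Sik3 at 0.95, Smtnl2 at 0.91 and Tbc1d9b at 0.91. These are the highest over 14 arrays among the 11786 genes once predicted and unnamed transcripts were left out, and are given as a description. Cbln4 was detected on 7 arrays and so had no such list.

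Other genes of the pathway were counted from lists drawn up with earlier results of these data known, and those named here that did not pass the test were picked after their values were seen. Over all genes 4.64% were called, 2.32% in each direction, and 21.8% had an unadjusted p under 0.05, which is the background of the counts that follow. Cerebellin receptors and C1q relatives showed no called gene: of 13 listed, 10 were tested and 0 were called by limma, with 2 at an unadjusted p under 0.05. Of the netrin receptors that bind Cbln4, Neo1 had a difference of -0.11 ± 0.20 (SE) and Dcc of 0.14 ± 0.21 (SE). Adgrb3, the receptor of C1q-like proteins, differed by 0.35 ± 0.22 (SE). C1ql3, one of those ligands, was detected in 2 Type 1 tumours and all 7 Type 2 tumours, with a difference of -0.80 ± 0.22 (SE) and a limma adjusted p of 0.0537.

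Other neurexin ligands gave 0 called of 9 tested by limma, with 4 at an unadjusted p under 0.05, and a median difference of -0.01. They ran both ways: the calsyntenin gene Clstn3 at 0.99 ± 0.36 (SE) and the neurexophilin gene Nxph1 at 1.06 ± 0.51 (SE) against Clstn1 at -0.63 ± 0.19 (SE) and the dystroglycan gene Dag1 at -0.51 ± 0.19 (SE). Inhibitors and shedding enzymes of neuroligin gave 0 called of 3 tested by limma, with 1 at an unadjusted p under 0.05. That gene was Mmp9, a protease that cleaves neuroligin, at -1.34 ± 0.47 (SE) and a limma adjusted p of 0.113.

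Scaffolds that hold neurexins and neuroligins had 3 of 12 tested genes called, all higher in Type 1, beside 2.32% of all genes called in that direction, and a median difference of 0.52. Shank3, a postsynaptic scaffold of excitatory synapses, was 1.28 ± 0.20 (SE) higher in Type 1, with 7.46 ± 0.67 against 6.27 ± 0.22 (SD, n = 7 each) and a limma adjusted p of 0.00688. Dlg3, of the PSD-95 family that neuroligins bind, was 0.74 ± 0.19 (SE) higher with a limma adjusted p of 0.0408. Apba2, an adaptor of presynaptic neurexin complexes, was 0.71 ± 0.19 (SE) higher with a limma adjusted p of 0.0477. The last 2 calls were narrow: leaving out a tumour ended the call of Dlg3 in 11 of 14 cases and that of Apba2 in 12 of 14.

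Splicing factors that act on neurexin transcripts had 1 of 10 tested genes called. Rbfox3, also a neuron marker, was 2.65 ± 0.55 (SE) higher in Type 1 with a limma adjusted p of 0.0185, and 3.99 in batch 1 against 1.31 in batch 2. Without Type 1 replicate 2 its limma adjusted p was 0.0541. Rbfox1 was at 1.07 ± 0.43 (SE), and the neuronal repressor Ptbp2 at 1.05 ± 0.36 (SE), and neither passed. Among other synaptic organisers, 2 of 30 were called, both higher in Type 1, beside a list median of 0.04. Lgi1, a secreted protein of excitatory synapses, was detected in all 7 Type 1 tumours and in 1 Type 2 tumour and had a fitted difference of 1.63 ± 0.27 (SE) with a limma adjusted p of 0.00769. Its Type 2 mean, 4.90 ± 0.31 (SD, n = 7), lay below the detection floor, so the size of that difference rests on background readings. Tenm4, a teneurin, was 1.05 ± 0.28 (SE) higher with a limma adjusted p of 0.048, but probe 3 of this gene gave 0.06 and leaving out a tumour ended the call in 11 of 14 cases.

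With the mean of the 11 mature neuron markers as a covariate, 0 of the 6 called pathway genes passed by limma (14 of the pathway genes had an unadjusted p under 0.05). Over all 11786 genes, 31 passed in that fit against 547 without the covariate, so nothing particular to the pathway is read from this loss. The differences were then 1.05 ± 0.22 (SE) for Shank3, with a limma adjusted p of 0.0577, and 1.47 ± 0.33 (SE) for Lgi1, with a limma adjusted p of 0.0643. Rbfox3 was at 1.62, Tenm4 at 0.70, Dlg3 at 0.56 and Apba2 at 0.54. The part of neurons in these differences was not tested. In batch 2 alone Shank3 differed by 0.77 and Lgi1 by 1.31, and neither passed there.

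**Figure D5:**
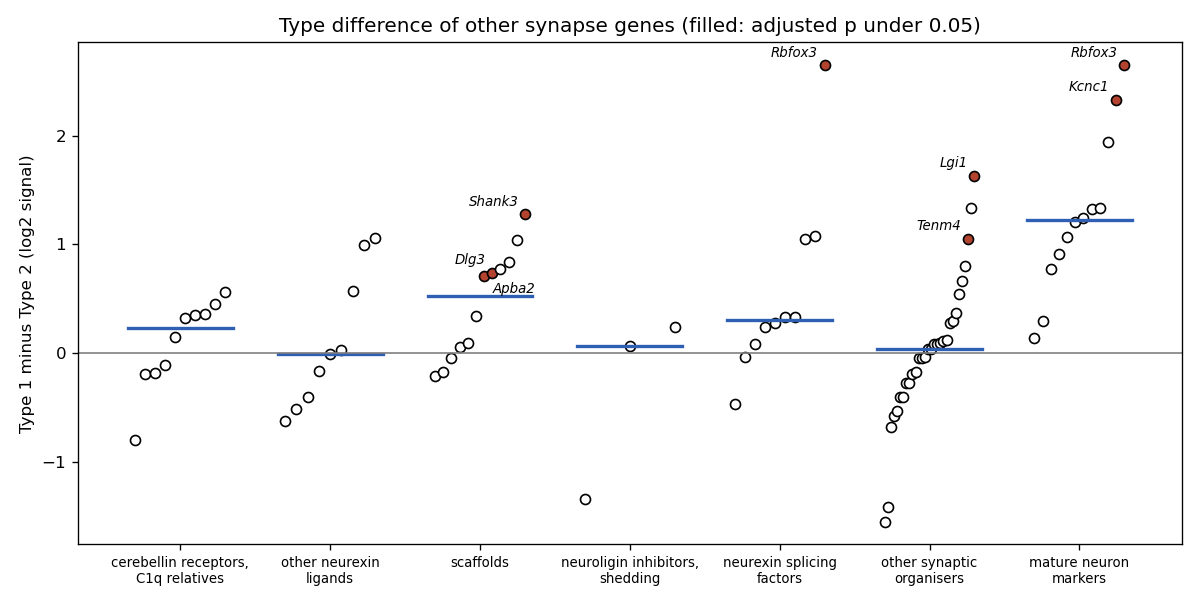
Difference between the types in log2 signal (y axis, Type 1 minus Type 2) of each tested gene in 6 lists of synapse genes and in the mature neuron markers (x axis); filled points have a limma adjusted p under 0.05, and blue lines are list medians. The called genes all lie above 0, and the neuron markers have the highest median, 1.22.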

How the data were processed

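Total RNA of 14 tumours was hybridised to single-colour bead arrays. The deposited table without normalization gave, per the file headers, the intensity of 45281 probes on each array with its detection p-value. The submitters' processing notes name BeadStudio. A second deposited table held the authors' processed values of 38502 probes, which followed log2 signal with a slope of 1.018, own-array correlations of 0.9991 to 0.9998 and array medians of 2.665 to 2.687. The making and centring of this second table are not given in the sources used here, so only differences were used.

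Signals were normalized with neqc (offset 16) of limma 3.58.1 in R 4.3.3 to log2 values. The platform annotation, updated through GRCm38.p6 identifiers, gave 32034 probes 1 symbol, 16 several (left out) and 13231 none. A probe was kept with a detection p under 0.05 on at least 3 arrays, and the brightest probe stood for its gene. Types were compared by limma in a model with a batch term, and p-values were Benjamini-Hochberg adjusted over 11786 genes. In simulated data on 11786 genes, the type comparison recovered 37 of 50 genes changed by 1 log2 unit and 49 of 50 changed by 3.

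The members and lists were chosen with earlier results of these data known. Named were all members, called genes of the pathway lists, the 3 genes most like each member and the 3 neighbours on each side of Cbln4. Replicate numbers are in accession order and pair nothing, and p-values reflect only how these tumours vary. Alternatives covered batch, chip, background, scaling, the authors' values, filters, probe averaging, array weights, a neuron covariate and left-out tumours. Trp53 was not analysed here. The Cre targets are given in part.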

Additional observations from a re-analysis of the deposited data

Results flagged for a closer look

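In 38 sets of 7 tumours (each detected probe or gene within a type), 3 had a tumour far from the others of its type, where chance gives about 1 in 20. Cbln1 in Type 1 had its lowest value in replicate 3, at 7.8706 with the next at 9.8943. Nrxn2 probe 1 in Type 1 had its highest value in replicate 4, at 11.5009 with the next at 10.2405. Nrxn3 probe 3 in Type 1 had its lowest value in replicate 7, at 5.038 with the next at 6.1831, and was not detected there.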

How the results depend on the processing

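Of 181 recomputed member differences, 175 lay within 1 SD of the reported value, the SD being that among tumours within type and batch. This is a loose bound, since that SD exceeded the SE of every member difference and most settings share most arrays. Within it lay Nrxn3 at -0.59 and Nrxn2 at 0.46 with the neuron covariate, and Nlgn1 at -0.11 in batch 1. Beyond it lay Cbln2 at 0.045 in batch 1, 0.72 in batch 2 and 0.13 without background correction. So did Nrxn3 at 0.82 in batch 1 and -0.68 in batch 2, and Cbln4 at 1.28 without background correction. Leaving out each tumour in turn gave Cbln4 2.49 to 3.07, Cbln1 0.82 to 1.35 and Nrxn3 -0.21 to 0.25. The count of members called was 2 with array weights and 1 to 2 over left-out tumours (Cbln1 joined without Type 1 replicate 3). Genes called between types numbered 547, 166 in batch 1 alone (125 higher in Type 1 and 41 in Type 2), 123 in batch 2 alone (37 and 86), 31 with the neuron covariate, 104 when the 2 tumours with the most choroid plexus signal were left out, and 194 to 642 over left-out tumours, with the lowest without Type 1 replicate 2. Pathway genes called were 6, 1 in batch 2 alone, 0 with the neuron covariate, 3 without the choroid-high tumours, and 2 to 6 over left-out tumours. Genes called between batches were 1258, 4181 after median scaling, 0 by limma in the authors' processed table (479 at an unadjusted p under 0.05) and 671 without the choroid-high tumours. Interaction calls were 0, 2 without background correction, 1 in the authors' table, 11 with no detection filter, 5 with a detection p under 0.01 on 7 arrays, 0 to 36 over left-out tumours, and 2603 with chip as a random block, where the consensus correlation was -0.242. In that last fit only the Type 1 tumours of batch 1 lay on more than 1 chip, so its correlation is poorly determined and nothing is read from its count. The causes of the shifts in these counts were not tested. No paired analysis was possible because replicate numbers are in accession order.

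Chip and type cannot be told apart. Cbln2, Nlgn1 and probe 4 of Nrxn3 lay near the detection floor, so their differences are limited by signal over background. The Type 2 readings of Cbln4 lay below the floor, so the size of its fitted difference rests on background readings.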
